A study of Sus scrofa with 14 samples.

Results

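The 6 genes described here encode proteins of the fibrous extracellular matrix: COL5A1 and COL5A2, the alpha 1 and alpha 2 chains of type V collagen, SPARC, FBN1 (fibrillin-1), TNC (tenascin-C) and DCN (decorin). Every non-control probe of the arrays whose RefSeq accession is a transcript of one of these pig genes was taken, which gave 23 of the 43603 probes, and the 6 genes stand among 2389 genes that could be named. COL5A1 was read by 3 probes, COL5A2 by 4, SPARC by 7, FBN1 by 3, TNC by 2 and DCN by 4. Probes of one gene share its transcript and are not replicates, so every comparison below was made over arrays. Within a gene the probes are numbered from the brightest to the dimmest.

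RNA came from the meniscus, the crescent of fibrocartilage between femur and tibia, of male Wuzhishan pigs, a miniature breed, whose age is labelled as 6 to 7 months. In 7 pigs (OA, osteoarthritis) the anterior cruciate ligament had been operated on 24 weeks earlier, and the other 7 pigs (sham) had had a sham operation 24 weeks earlier. Each pig gave 1 array with a single dye, Cy3. The comparison asks which transcripts differ between the menisci of operated and sham knees, and the OA group is defined by the surgery, with no score of degeneration per animal among the labels used here.

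Type V collagen is a minor fibrillar collagen that is built into type I collagen fibrils and helps to start them and to limit their width. DCN, a small leucine-rich proteoglycan, coats fibrils from outside, and SPARC is a collagen-binding glycoprotein of remodelling tissue. FBN1 forms microfibrils that carry elastin and hold latent TGF-beta, while TNC is a large adhesion-modulating glycoprotein that is known to appear in loaded and injured tendon, ligament and meniscus.

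All 23 probes were well above background on all 14 arrays, and no spot of theirs was set missing. Levels are given as log2 of the background-subtracted spot signal minus the array's 75th percentile, so a level of 0 means a signal equal to that percentile. The 75th percentile of the signal lay between 156 and 492 units on the OA arrays (median 226) and between 418 and 622 units on the sham arrays (median 586). Before this scaling 23 of 23 probes were dimmer in OA, as were 98.8% of the 38818 tested probes, so that all changes below are relative to the array. The OA arrays lay on 3 slides and the sham arrays on 2 others, scanned on other days, so group and slide cannot be told apart. The cartilage markers ACAN (aggrecan), HAPLN1 (link protein), SOX9 and C15H2orf82 were well above background on all 14 arrays.

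None of the 6 genes passed the test between OA and sham menisci. With limma and Benjamini-Hochberg adjustment over all tested probes, 0 of the 23 probes had an adjusted p under 0.05, where 3.73% of all tested probes did (2.89% higher and 0.848% lower in OA, 1120 and 329 probes, or 1385 and 784 with median scaling). At an unadjusted p under 0.05 there was 1 probe of the 23, COL5A1 probe 1, where 19.6% of all tested probes passed (9.45% higher and 10.1% lower in OA). That count depended on the fit: it was 4 with array weights, 4 with normexp background correction, 5 without sham 4, 0 without slide 4 and 6 with array brightness as a covariate. The 6 were lower in OA and did not include COL5A1 probe 1. Over all tested probes the count at that p moved as well, from 7593 of 38818 to 7773 with array weights and 20444 with normexp. For the other fits it is not given here. For 0 of the 23 probes were the OA and sham arrays separated without overlap, where 1.73% of all tested probes were. The change, OA minus sham, was positive for 6 probes and negative for 17, where 45% of all tested probes were positive. Its median was -0.10 over the 23 probes and -0.05 over all tested probes. Tested probes were also sorted by mean signal into 10 bins, and 18 of the 23 probes had a change below the median change of their own bin.

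**Figure D1:**
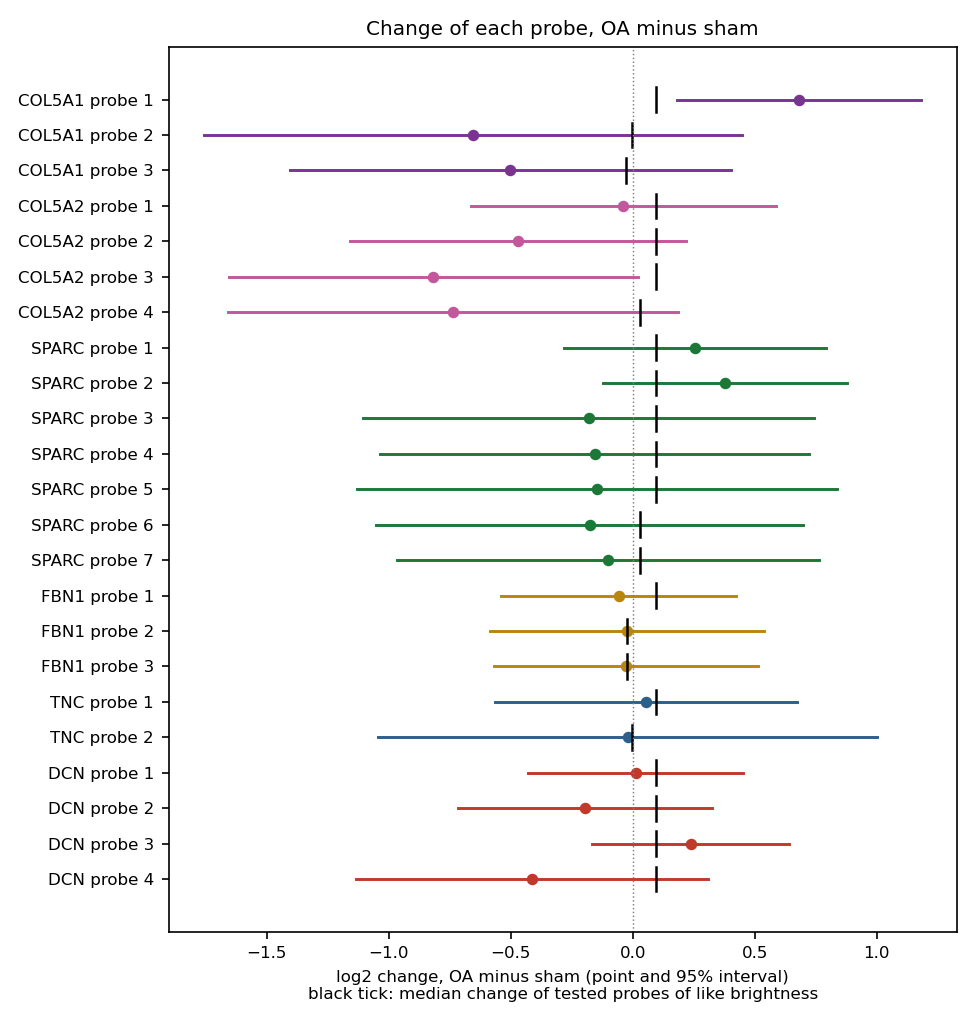
The log2 change, OA minus sham, of each of the 23 probes is plotted as a point with its 95% interval from limma (7 arrays per group). Black ticks mark the median change of tested probes of like brightness. The interval of COL5A1 probe 1 (0.18 to 1.18) does not reach 0, and those of the other 22 probes do.

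COL5A1 was the gene whose probes disagreed most. COL5A1 probe 1 lay between 5.27 and 6.51 on the OA arrays (median 5.61), against 4.78 to 5.65 on the sham arrays (median 5.23). All 7 OA arrays stood above the sham mean and 3 of them, OA 1, OA 2 and OA 3, above the highest sham array, while the other 4 overlapped with the sham arrays. The mean level was 5.85 ± 0.51 in OA and 5.17 ± 0.38 in sham (SD, n = 7 each), a log2 change of 0.68 ± 0.24 (SE), or 1.60-fold, with a limma p of 0.0106 and an adjusted p of 0.12. The other probes of the same transcript gave values of the opposite sign. COL5A1 probe 2 averaged 0.04 ± 0.62 in OA and 0.70 ± 1.44 in sham, a change of -0.65 (95% interval -1.76 to 0.45), and 6 of 7 OA arrays were below the sham mean. COL5A1 probe 3 averaged -1.59 ± 0.86 in OA and -1.09 ± 0.93 in sham, a change of -0.50 (interval -1.41 to 0.40).

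The size of the positive change of COL5A1 probe 1 depended on which OA slides were kept. With each array left out in turn, the change ran from 0.57 to 0.78. The probe had levels of 6.17, 6.51 and 6.42 on OA 1, OA 2 and OA 3 and of 5.56, 5.61, 5.27 and 5.40 on OA 4 to OA 7. OA 2 to OA 5 shared slide 4, with a mean of 6.03, and OA 6 and OA 7 shared slide 5, with a mean of 5.33, against 5.12 and 5.24 on the sham slides. Without slide 4 the change was 0.45, without slides 3 and 4 it was 0.17, and with the raw brightness of the array as a covariate it was 0.04 (limma adjusted p = 0.99). Brightness itself ran largely with group, so that fit cannot fully separate them. With normexp background correction the change of COL5A1 probe 1 was 0.52 and passed the threshold (limma adjusted p = 0.043). That fit called 18413 of the 38818 tested probes, 17635 of them higher in OA, and the median change over all tested probes was 0.34.

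The 4 probes of COL5A2, the partner chain of COL5A1, all gave negative changes, and none passed the test. COL5A2 probe 3 lay between 2.11 and 3.82 on the OA arrays (median 3.14), against 2.39 to 4.70 on the sham arrays (median 4.38). All 7 OA arrays were below the sham mean and 2 were below the lowest sham array, but sham 1 and sham 4, at 2.64 and 2.39, lay among the OA arrays. The mean was 3.09 ± 0.65 in OA and 3.91 ± 0.97 in sham, a change of -0.82 ± 0.40 (SE, limma adjusted p = 0.27). With normexp correction the change was -0.86 and passed (adjusted p = 0.049), in a fit that called 18413 of the 38818 tested probes, 778 of them lower in OA. The change was larger, but did not pass, with array weights (-1.09, limma adjusted p = 0.11), without slides 3 and 4 (-1.28) and with brightness as a covariate (-1.73, adjusted p = 0.36). Brightness itself ran largely with group. COL5A2 probe 4 averaged 2.25 ± 0.71 in OA and 2.98 ± 1.09 in sham, a change of -0.74 (interval -1.66 to 0.18). Its sham arrays ran between 0.82 on sham 4 and 3.90, and without sham 4 the change was -1.10 (adjusted p = 0.091). COL5A2 probe 2 had a change of -0.47 (interval -1.16 to 0.22). The brightest, COL5A2 probe 1, lay between 4.51 and 5.71 in OA (median 5.34), against 3.95 to 5.92 in sham (median 5.45), with a change of -0.04 (interval -0.67 to 0.59).

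**Figure D2:**
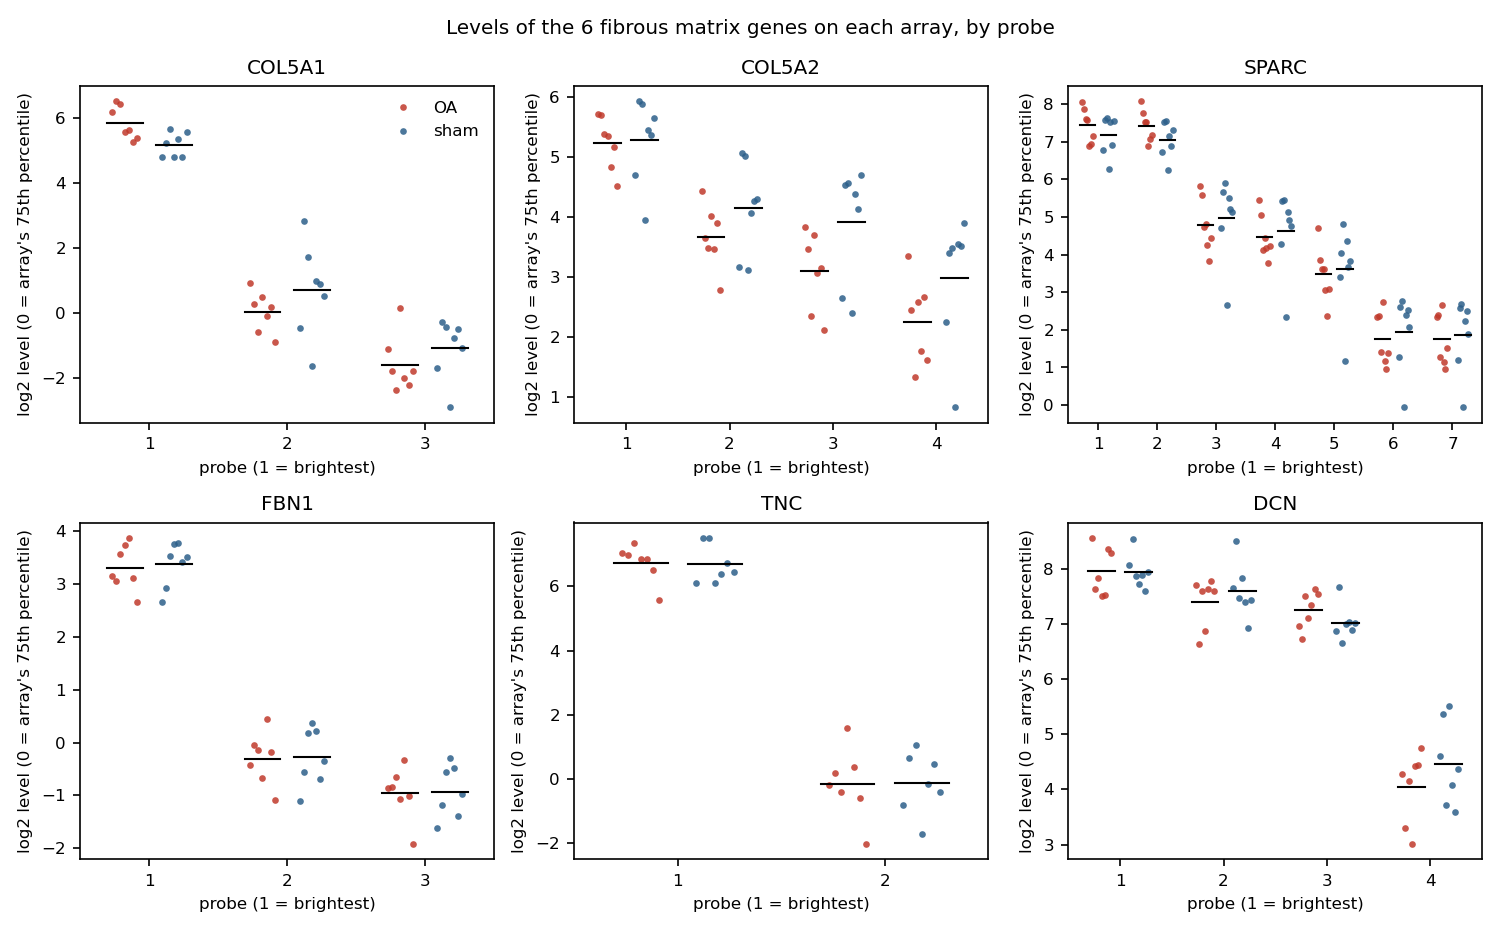
Each point is the log2 level of a probe on 1 array (0 is that array's 75th percentile), OA left of sham, with the group mean as a bar and the arrays of a group in order from left to right. The groups overlap at every one of the 23 probes, and sham 4 is the lowest sham array at all 7 SPARC and all 4 COL5A2 probes.

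SPARC split into 2 bright probes with positive changes and 5 others with negative ones. SPARC probe 1 lay between 6.90 and 8.06 in OA (median 7.57), against 6.28 to 7.64 in sham (median 7.54), and 2 OA arrays exceeded the highest sham array. Its change was 0.25 ± 0.25 (SE; limma adjusted p = 0.62). SPARC probe 2 lay between 6.90 and 8.08 in OA (median 7.52), against 6.24 to 7.56 in sham (median 7.16), a change of 0.38 ± 0.24 (adjusted p = 0.40) with 6 of 7 OA arrays above the sham mean. SPARC probes 3 to 7 had changes between -0.18 and -0.10, each much smaller than its interval, which for SPARC probe 3 was -1.11 to 0.74.

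Sham 4 was the lowest sham array at all 7 SPARC probes and stood far from the rest at 3 of them. It had 2.66 at SPARC probe 3, 2.33 at probe 4 and 1.17 at probe 5, and the next lowest sham arrays had 4.71, 4.29 and 3.39. With each array left out in turn, the change of SPARC probe 3 ran from -0.57 to -0.02 and that of probe 5 from -0.55 to 0.05. The upper ends of the OA group were also shared, since OA 1 was the highest OA array at 5 of 7 SPARC probes and at 4 of 4 COL5A2 probes.

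Over all 14 arrays FBN1 had near-equal means in the 2 groups at all 3 probes. FBN1 probe 1 lay between 2.67 and 3.88 in OA (median 3.15), against 2.67 to 3.78 in sham (median 3.52), with means of 3.32 ± 0.43 in OA and 3.37 ± 0.42 in sham. The change was -0.06 ± 0.23 (SE; limma adjusted p = 0.92), and its interval, -0.54 to 0.42, leaves room for a change of either sign. FBN1 probes 2 and 3 had changes of -0.02 and -0.03, so the 3 probes spanned 0.03 on the log2 scale. OA 7 was the lowest OA array at all 3. The means were less close without slide 4, where the changes were -0.39, -0.29 and -0.34 for FBN1 probes 1 to 3, none past the threshold.

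TNC likewise had near-equal means over all arrays, with wide scatter. TNC probe 1 lay between 5.59 and 7.37 in OA (median 6.85), against 6.10 to 7.51 in sham (median 6.46), a change of 0.05 ± 0.29 (SE; limma adjusted p = 0.94). OA 7 was the lowest of all 14 arrays, and sham 2 and sham 3, both at 7.51, were the highest. The dim TNC probe 2 lay between -2.02 and 1.60 in OA (median -0.20), against -1.71 to 1.06 in sham (median -0.15), a change of -0.02 (interval -1.04 to 1.00). These values rested on the arrays of slide 4, without which the changes were -0.30 at TNC probe 1 and -0.80 at TNC probe 2, neither past the threshold.

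DCN gave changes of mixed sign. DCN probe 1 lay between 7.50 and 8.56 in OA (median 7.84), against 7.59 to 8.53 in sham (median 7.89), a change of 0.01 ± 0.21 (SE; limma adjusted p = 0.98). Its interval, -0.43 to 0.45, was among the narrower ones of the 23 probes. DCN probe 2 had a change of -0.20 (interval -0.72 to 0.32), DCN probe 3 one of 0.24 (interval -0.17 to 0.64) and DCN probe 4 one of -0.41 (interval -1.13 to 0.31). At DCN probe 3 the sham arrays were close together apart from sham 2, which had 7.67 against 7.03 on the next.

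Leaving out OA slides, or fitting array brightness as a covariate, moved these genes in different directions. Brightness ran largely with group (75th percentile 156 to 492 units in OA and 418 to 622 in sham). The fit with brightness therefore cannot fully separate it from group. Without slides 3 and 4, which leaves OA 6 and OA 7, all 4 COL5A2 probes had changes between -1.28 and -0.44, the 3 FBN1 probes between -0.54 and -0.36, and TNC probes 1 and 2 had -0.63 and -1.17. SPARC then ran between -0.90 and 0.06, COL5A1 probes 2 and 3 had -1.05 and -0.91, and the 4 DCN probes lay between 0.09 and 0.57. With brightness as a covariate the changes were between -1.73 and -0.82 for COL5A2, between -1.23 and -0.20 for SPARC, between -0.49 and -0.27 for FBN1, -0.96 and -1.77 for TNC probes 1 and 2, and between 0.03 and 0.47 for DCN. COL5A1 probes 2 and 3 had -1.75 and -1.44 in that fit. None passed the threshold in either fit, where the lowest limma adjusted p over the 23 probes was 0.42 and 0.33.

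The disagreement between probes of one gene was set beside that of the other genes. Of the 1211 named genes with more than 1 tested probe, 54.3% had probes with changes of both signs, and the median range between their highest and lowest change was 0.45. That range was 1.34 for COL5A1, 0.78 for COL5A2, 0.65 for DCN, 0.56 for SPARC, 0.07 for TNC and 0.03 for FBN1. By the mean of all its probes in place of the brightest, the change was -0.16 for COL5A1, -0.02 for SPARC and -0.09 for DCN, each of the opposite sign to that of the brightest probe.

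Within the OA group the probes of these genes differed between slides, which also differed in brightness. The 75th percentile of the signal was 156 to 250 units on slide 4 and 404 to 492 units on slide 5. On slide 5 (OA 6 and OA 7) all 3 COL5A1, all 7 SPARC, all 3 FBN1 and both TNC probes had lower means than on slide 4 (OA 2 to OA 5), as did 3 of 4 COL5A2 probes. TNC probe 1 averaged 6.06 on slide 5 and 7.01 on slide 4, and TNC probe 2 averaged -1.30 on slide 5 and 0.44 on slide 4. DCN went the other way at 4 of 4 probes. DCN probe 1 averaged 8.31 on slide 5 and 7.62 on slide 4. With 2 arrays against 4 these differences were not tested, and pig and slide cannot be told apart here. The share of all tested probes that differed between these slides is not given, so the counts cannot be read as particular to these genes.

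**Figure D3:**
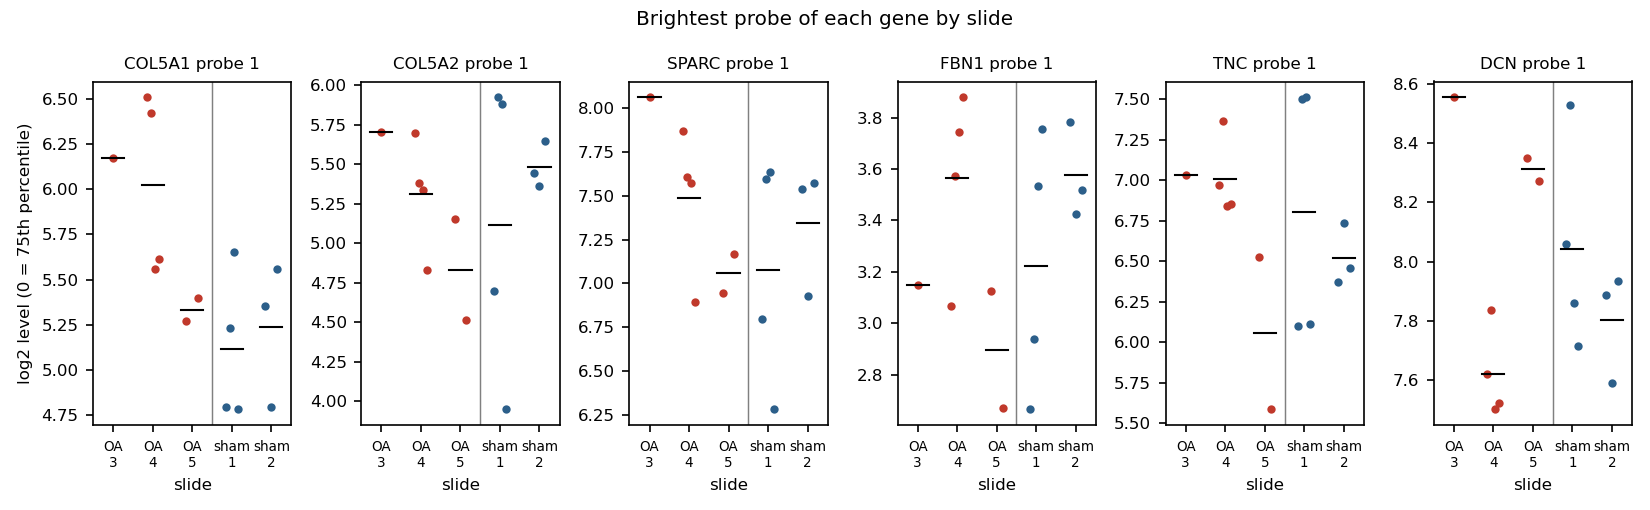
The log2 level of the brightest probe of each gene is plotted per array, grouped by slide, with OA slides 3 to 5 left of sham slides 1 and 2 and the slide mean as a bar. DCN probe 1 is higher on slide 5 than on slide 4, and COL5A1 probe 1 and TNC probe 1 are lower.

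The arrays varied together at COL5A2 and SPARC. Likeness was measured as Pearson's r of the deviations from the group means over the 14 arrays, as a description, since all probes share the arrays' RNA, slides and scaling. Between probes of one gene the median r was 0.90 for SPARC (0.82 to 1.00), 0.88 for COL5A2 (0.79 to 0.92), 0.80 for FBN1 (0.73 to 0.96), 0.75 for TNC, 0.69 for DCN (0.46 to 0.87) and 0.37 for COL5A1 (0.16 to 0.78). Over the 213 pairs of probes from different genes the median was 0.17. The brightest probes of SPARC and COL5A2 had r = 0.89, and deviations from slide means (13 arrays) gave 0.88. FBN1 stood apart, with r = -0.05 with SPARC and -0.01 with COL5A2, and -0.34 and -0.27 from slide means. DCN had r = 0.19 with COL5A2, 0.24 with SPARC and -0.02 with TNC, but 0.57, 0.58 and 0.43 from slide means, so its place depended on the slides. Between FBN1 and DCN r was -0.65, and -0.45 from slide means.

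**Figure D4:**
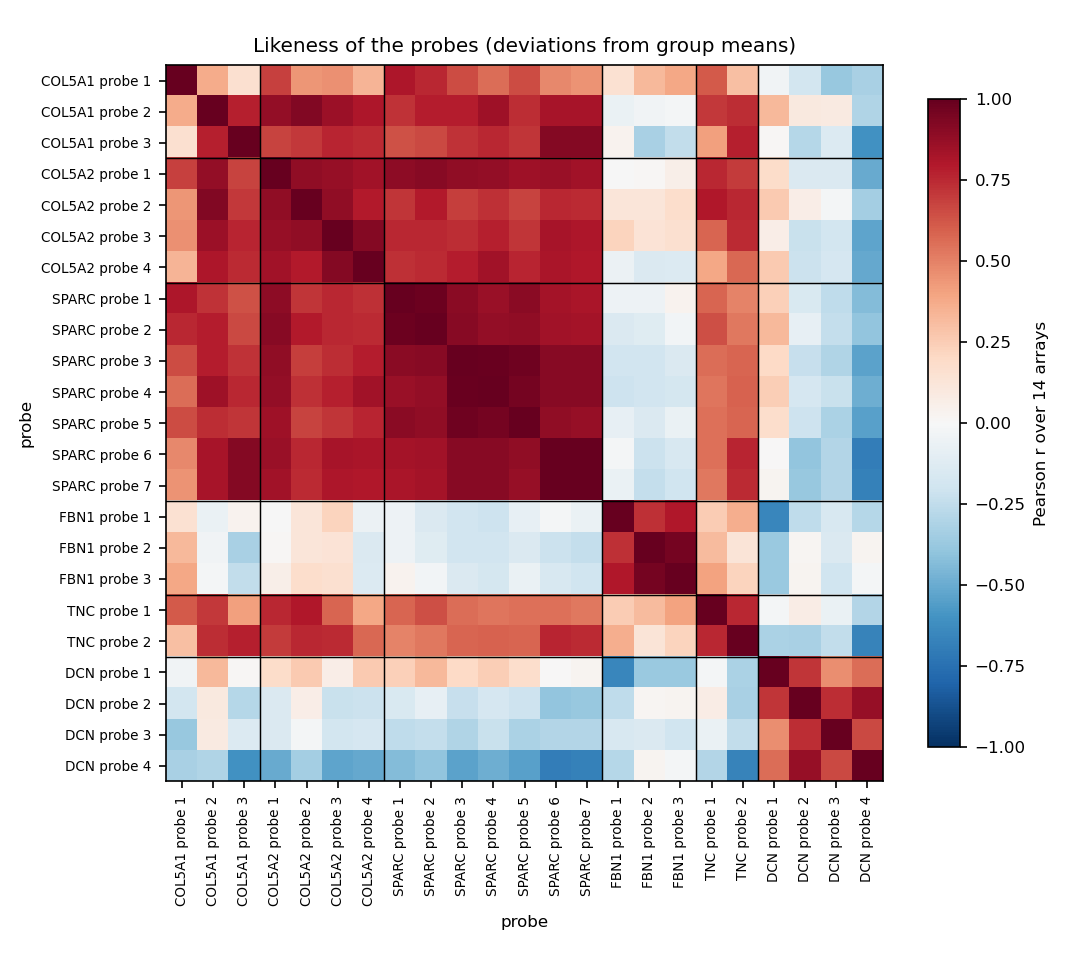
Each cell gives Pearson's r between 2 of the 23 probes, computed from deviations from the group means over 14 arrays, with lines between genes. Red cells join COL5A1, COL5A2, SPARC and TNC, while FBN1 and DCN form blocks of their own. With deviations from slide means DCN probe 1 had r = 0.57 with COL5A2 probe 1.

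COL5A1 probe 1 was only loosely tied to its own probes and followed other genes more closely. It had r = 0.37 with COL5A1 probe 2 and 0.16 with probe 3, which had r = 0.78 with each other. The 3 named genes most like it, by their brightest probes, were TRIM26, a member of the tripartite motif ubiquitin ligases (r = 0.98), HCRTR2, a receptor of the neuropeptide orexin (r = 0.96), and SCG5, a chaperone of a prohormone convertase (r = 0.96). All 3 were called higher in OA by limma, TRIM26 by 1.16 (adjusted p = 0.015), HCRTR2 by 1.13 (adjusted p = 0.015) and SCG5 by 1.33 (adjusted p = 0.0078). The second probe of TRIM26 had r = -0.28 with its brightest probe and a change of -0.35, and that of SCG5 had r = -0.11 and a change of -0.57. A total of 34 tested probes had r over 0.95 with COL5A1 probe 1, and 17 of them were called higher in OA and 0 lower, with a median change of 0.92.

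The genes most like the other 5 were of several kinds. For COL5A2 they were ITIH2, a hyaluronan-binding heavy chain of the inter-alpha-trypsin inhibitor (r = 0.90), SPARC (0.89) and HAPLN1, the link protein of aggrecan (0.88). For SPARC they were COL5A2 (0.89), PET100, a factor of cytochrome c oxidase assembly (0.87), and MYL6, a myosin light chain (0.86). For TNC they were SLC7A1, a transporter of cationic amino acids (0.90), HK2, a hexokinase (0.90), and RPN1, a subunit of the oligosaccharyltransferase (0.88). FBN1 was most like RAB28, a small GTPase (0.82), RGS2, a regulator of G protein signalling (0.78), and IL23A, an interleukin-23 subunit (0.75). DCN was most like CASP10, a caspase (0.90), DNASE1, a deoxyribonuclease (0.88), and ESR1, the oestrogen receptor alpha (0.88). None of the genes named for these 5 was called between the groups. With deviations from slide means the r of DCN with its 3 genes was 0.69, 0.65 and 0.61.

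**Figure D5:**
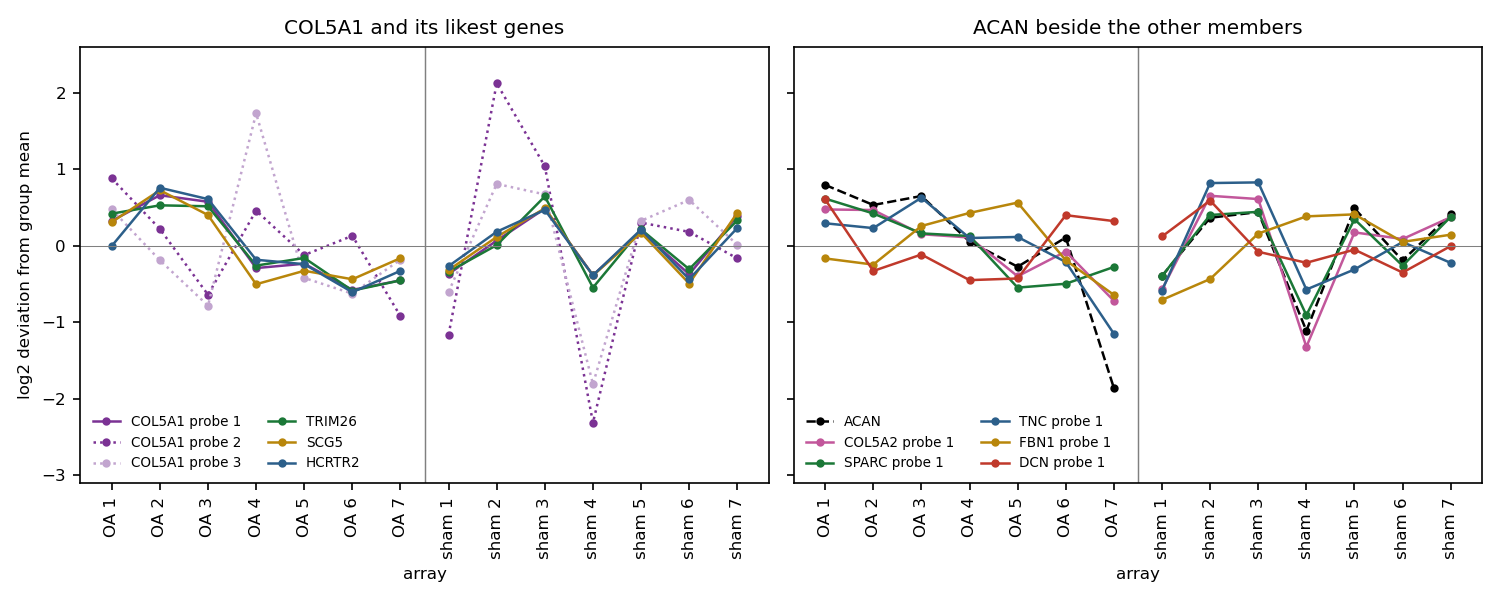
The log2 deviation from the group mean is plotted for each array, OA left of sham, on the left for the 3 COL5A1 probes with TRIM26, SCG5 and HCRTR2, and on the right for ACAN with the brightest probes of the other 5 genes. COL5A1 probe 1 runs with the 3 other genes and apart from its own probes 2 and 3, and ACAN, COL5A2 and SPARC are all low on sham 4.

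ACAN, the aggrecan gene, moved with the brightest probes of 4 of the 6 genes across the arrays. The share of all tested genes that moved as closely with ACAN is not given, so this cannot be read as particular to these genes. For COL5A1 it holds for probe 1, which had r of only 0.37 and 0.16 with the other COL5A1 probes. Of the 13 cartilage markers listed, 4 were tested, 0 were called, and none was at 0. Their summed level (the array's 75th percentile taken as 1) lay between 63.6 and 415 in OA (median 257), against 89.7 to 293 in sham (median 270), with the lowest values on OA 7 and sham 4. ACAN made up 78.9% to 95.2% of this sum. ACAN alone had r = 0.84 with COL5A2 probe 1 (Spearman's rho 0.81), 0.74 with SPARC probe 1 (rho 0.81), 0.77 with TNC probe 1 (rho 0.66) and 0.72 with COL5A1 probe 1 (rho 0.82), all from deviations from the group means over 14 arrays.

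In a two-sided permutation test with arrays shuffled within their group, the p of r for ACAN was 3e-05 with COL5A2, 0.0010 with SPARC, 0.0028 with TNC and 0.0033 with COL5A1, and the p of rho was 0.00041, 0.0011, 0.0090 and 0.0018. After adjustment over the 108 relations computed, they were 0.0016, 0.023, 0.038 and 0.039 for r, and 0.018, 0.023, 0.087 and 0.032 for rho, so that the rank relation with TNC did not pass. Without the 2 arrays farthest from the median of ACAN, r was 0.80 for COL5A2, 0.86 for SPARC, 0.49 for TNC and 0.82 for COL5A1. Within OA alone (7 arrays) these r were 0.91, 0.59, 0.93 and 0.66, and within sham alone 0.94, 0.99, 0.59 and 0.84. The shuffling crossed slides within a group, so slide differences that ACAN shares with a gene can enter these p-values. ACAN had 7.83 on OA 6 and 5.86 on OA 7 (slide 5), against 7.45 to 8.38 on slide 4. No r from slide means is given for ACAN. The same limit holds for the marker sums below.

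The 3 other cartilage markers without ACAN (SOX9, HAPLN1 and C15H2orf82) summed to 5.34 to 47.4 in OA, against 6.68 to 62.0 in sham. This sum had r = 0.85 and rho = 0.74 with COL5A2 probe 1 (permutation p = 0.00025 and 0.0069, adjusted 0.0090 and 0.075) and r = 0.75 and rho = 0.67 with TNC probe 1 (permutation p = 0.0043 and 0.016, adjusted 0.042 and 0.12). With SPARC probe 1 it had r = 0.66 (adjusted permutation p = 0.11) and with COL5A1 probe 1 r = 0.42 (0.58). Without the 2 farthest arrays r was 0.65 for COL5A2 and 0.52 for TNC.

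FBN1 and DCN showed no such relation that passed, with r = 0.25 (rho 0.10) for FBN1 and ACAN and 0.06 (rho 0.18) for DCN and ACAN, and permutation p of 0.43 and 0.89 for r and 0.74 and 0.58 for rho. FBN1 probe 1 ran against the summed T and NK cell markers, with r = -0.74 and rho = -0.75 (permutation p = 0.0046 and 0.0032, adjusted 0.042 and 0.043). Of the 12 markers listed, 8 were tested, 0 were called, and 4 were well above background on all 14 arrays. GZMB, granzyme B, made up 52.9% to 90.03% of that sum (median 72.3%), and without it r was -0.53 and did not pass (adjusted permutation p = 0.37). The sum lay between 1.86 and 8.22 in OA (median 3.05), against 1.84 to 12.8 in sham (median 2.99). In whole tissue, fewer cells of a type and less RNA per cell cannot be told apart, and the part of cell composition in any value here was not tested.

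TNC probe 1 had r = -0.70 and rho = -0.70 with the summed macrophage markers (permutation p = 0.0073 and 0.010), which did not pass after adjustment (0.061 and 0.087). Of the 9 macrophage markers 4 were tested, all 4 well above background on every array, and 0 were called. The skeletal muscle sum without ACTA1, which made up 76.6% to 90.4% of it, had r = 0.80 and rho = 0.81 with TNC probe 1 (permutation p = 0.0026 and 0.0021, adjusted 0.038 and 0.032). Without the 2 farthest arrays that r was 0.65, within OA 0.71 and within sham 0.87. With ACTA1 it was 0.53 (adjusted permutation p = 0.37).

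Besides these, the full cartilage sum, mostly ACAN, passed with the same 4 genes as ACAN (r of 0.70 to 0.86), and no other relation of a marker sum, with or without its brightest gene, passed after adjustment. Of the 9 tested adipocyte genes 1 was called, LEP (leptin), higher in OA by 0.74 (limma adjusted p = 0.021). Only 1 of the 2 LEP probes had a positive change. In that list 7 genes had positive changes, and ADIPOQ (-0.18) and CIDEC (-0.34) had negative ones. Of the 13 tested skeletal muscle genes 1 was called, TNNI1 (slow troponin I), higher in OA by 0.71 (adjusted p = 0.041) at a signal of 32.8 units. In that list 6 genes had positive changes, and the median was -0.07. None was called among 5 smooth muscle and pericyte genes, 4 endothelial genes, 3 neutrophil genes or 1 erythrocyte gene.

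Which group was the more scattered depended on sham 4. With all arrays the SD was larger in OA than in sham for 5 of the 23 probes (8 with median scaling), where it was larger in OA for 64.9% of all tested probes and for 62.4% of those in the brightest bin. Without sham 4 it was larger in OA for 14 of the 23 probes, where it was for 70.6% of all tested probes. At SPARC probe 5 the SD was 0.74 in OA and 1.18 in sham, or 0.51 in sham without sham 4. At COL5A1 probe 2 it was 0.62 in OA and 1.44 in sham, or 1.11 without sham 4. COL5A1 probe 1 was among the 5 with the larger SD in OA, at 0.51 against 0.38 in sham.

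The other matrix genes were read in the same way. Over all matrix lists, each gene read by its brightest probe, 32 genes including the 6 were tested and 0 were called, where 3.23% of the 2258 named genes tested were (2.97% higher and 0.266% lower in OA). At an unadjusted p under 0.05 there were 2, COL5A1 and ITGB3, where 15.3% of named genes passed. The median change was 0.07 over the 32 genes and 0.00 over all named genes, of which 50.5% had a positive change. Among fibrillar collagens 3 of the 11 listed were tested, and COL5A3, the alpha 3 chain of type V collagen, had a change of -0.05 (interval -0.74 to 0.64) at a signal of 50.0 units. Of the other collagens only COL10A1, of hypertrophic cartilage, was tested, with 0.28 (interval -0.15 to 0.70) at a signal of 39.0 units. Of collagen processing only P4HA1, a prolyl hydroxylase, was tested, with 0.23 (interval -0.38 to 0.84) at its brightest probe. Only 2 of the 7 tested P4HA1 probes had a positive change. DCN and FBN1 were the only tested genes of their lists (small leucine-rich proteoglycans and elastic fibres).

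Among 6 tested matricellular genes, SPARC and TNC included, TNXB (tenascin-X) had 0.44 (interval -0.32 to 1.19), and 1 of its 2 probes had a positive change. Of 9 matrix receptors, ITGB3, the beta 3 integrin chain, averaged 7.82 in OA and 7.21 in sham, a change of 0.61 ± 0.17 (SE) with a limma adjusted p of 0.055, and MET, the receptor of hepatocyte growth factor, had -0.69 (adjusted p = 0.28) and was well above background on 5 of 7 OA arrays. ITGB3 passed the threshold with median scaling (limma adjusted p = 0.035), no filter (0.046), the filter on all 14 arrays (0.041) and array weights (0.040). It also passed with trended and robust variances (0.036) and normexp (0.018). Among single arrays left out, it passed only without OA 5 (0.039). It did not pass with quantile normalization, the authors' table, or a block for replicate number, slide or scan day. Nor did ITGB3 pass with brightness as a covariate or with OA slides left out. Of 7 genes of TGF-beta signalling, ENG (endoglin) had -0.41 and TGFBR3 (betaglycan) -0.56. Of 3 tendon and fibroblast genes, TNMD (tenomodulin) had 0.85 (interval -0.71 to 2.41) and EGR2, a zinc finger factor, 0.26 at a signal of 24.1 units.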

How the data were processed

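Meniscus RNA of 14 pigs was read on 14 single-colour arrays, 7 OA and 7 sham. Per the file headers, the deposited spot intensity values come from Agilent Feature Extraction 11.0.1.1, with background subtraction and spatial detrending inside each array and no normalization between arrays. The authors' deposited series table holds log2 values. Set against the scanner signal of each array, its columns gave a Spearman rho of 0.994 to 1.00 and shared a median of 5.99, so they were read as quantile-normalized values that run with the signal and are not centred by gene. How this table was made is unstated in the sources used here.

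For each array the 75th percentile of the processed signal over the 43603 non-control probes was taken as the unit, and log2 of the ratio to it was analysed. The 82 spots marked by the scanner software were set missing, 0 spots were saturated, and repeated spots of 50 probes were averaged. Testing required a probe to be well above background on 7 or more arrays of 14 (38818 kept, 4785 left out). The test was limma 3.58.1 under R 4.3.3, two-sided, with lmFit and eBayes. Its p-values were adjusted by Benjamini-Hochberg across the 38818 probes, with a threshold of 0.05, and intervals are 95% intervals. The fit was first tested on simulated data. Each array was taken as a separate pig because the series text divides 14 pigs between the groups. The number of arrays limits the precision.

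A probe was named where its RefSeq accession, without version, was found in the RefSeq gene table of Sscrofa11.1 (5461 of 5779 were, for 2389 genes). No coordinates are given, since the sources used here do not state the build of the array design. The 6 genes, the matrix lists and the marker lists were chosen with earlier results of these data known. Named were the 6 genes with every probe, the called members of each matrix list (or its 2 members with the smallest p where fewer than 2 were called), and, for the brightest probe of each of the 6, the 3 named genes with the highest Pearson correlation over 14 arrays. Genes named outside this rule, such as markers, were chosen after their values were seen. Correlations with 9 marker sums, with 8 of these sums without their brightest gene (added after seeing the data) and with ACAN, 108 relations in all, had permutation p-values from 100000 resamples within groups.

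OA and sham arrays share replicate numbers, but same-numbered arrays had r between -0.19 and 0.27 for their deviations, with 2 of 7 pairs over 0.1, so the numbers were not taken as pairs. The alternatives for scaling were quantile normalization, median scaling, the authors' table and normexp (offset 50), which used median spot signals because the files used here hold no mean signal. Others kept marked spots, dropped the filter or asked for all 14 arrays. Further fits used trended and robust variances, array weights, a block for the replicate number, a random block of slide or of scan day, or brightness as a covariate. Single arrays and OA slides were also left out, and genes were read by the mean of all their probes.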

Additional observations from a re-analysis of the deposited data

Results flagged for a closer look

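In 4 of 46 groups of 7 arrays (23 probes, OA and sham), 1 array stood so far from the rest that its gap to the next, divided by the range, passed Dixon's 95% critical value of 0.568. Chance flags about 1 in 20 groups. Of these 4, 3 were sham 4 at SPARC probes whose arrays vary together: 2.66 at SPARC probe 3 (next lowest 4.71), 2.33 at SPARC probe 4 (next lowest 4.29) and 1.17 at SPARC probe 5 (next lowest 3.39), all log2 levels. The spots were well above background, with raw signals of 3847, 3061 and 1369 units. The other was sham 2 at DCN probe 3, with a level of 7.67 against 7.03 on the next highest sham array.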

How the results depend on the processing

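The 23 probes were computed under 29 alternatives, which gave 667 values, and 607 of these kept direction and side of the threshold. Under some alternatives the direction was fixed in advance. Dropping the filter, asking for all 14 arrays, keeping marked spots, trended and robust variances and the replicate block cannot alter the log2 change of these probes. The 607 therefore overstates how far direction was put to a test. The count of the 23 probes called stayed at 0 under each of the 29 alternatives except normexp background correction, which gave 2 (COL5A1 probe 1 higher at 0.52, COL5A2 probe 3 lower at -0.86). Normexp moved the median change of all tested probes to 0.34. The count over all tested probes, 1449 in the comparison above (1120 higher, 329 lower), was 2245 with quantile normalization (1569 higher, 676 lower), 18413 with normexp (17635 higher, 778 lower), 2551 with no filter, 2256 from the authors' table (1509 higher, 747 lower), 18 with a random block of slide and 148 with one of scan day, 4 with brightness as a covariate, 236 without slide 4 and 195 without slides 3 and 4. With the replicate number as a block it was 335, and that block changed no call among the 23 probes. Leaving out each array in turn gave 730 to 2710, the highest without OA 1 (2710), and it fell below 1449 by over 1.5 times without OA 2 (796), OA 3 (732), OA 5 (951), sham 1 (730), sham 2 (909), sham 3 (932) and sham 6 (827). In the matrix lists the count of 0 became 1 (ITGB3) with median scaling, no filter, the filter on all 14 arrays, array weights, and trended and robust variances, and 7 with normexp; it was 0 to 1 with each array left out, the 1 being without OA 5. The probes with a larger SD in OA, 5, became 8 with median scaling and ran from 3 to 14 with each array left out (14 without sham 4), an alternative added after seeing the data.

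Signs turned in 58 of the 667 values, and none of these passed the threshold. TNC probe 1 gave -0.0041 with quantile normalization, -0.0040 from the authors' table, -0.12 with normexp, -0.96 with brightness, -0.30 without slide 4 and -0.63 without slides 3 and 4. DCN probe 1 gave -0.30 with quantile normalization and from the authors' table and -0.19 with normexp. FBN1 probe 3 gave 0.12 with normexp. With brightness SPARC probe 1 gave -0.41, SPARC probe 2 -0.20, DCN probe 2 0.035 and DCN probe 4 0.29. Without slide 4 DCN probe 2 gave 0.10 and DCN probe 4 0.024. Without slides 3 and 4 these gave 0.089 and 0.13, and SPARC probe 1 gave -0.14. By the mean of all probes COL5A1 gave -0.16, SPARC -0.019 and DCN -0.090. With each array left out, the changes ran from -0.26 to 0.080 at COL5A2 probe 1, -0.55 to 0.054 at SPARC probe 5, -0.42 to 0.037 at SPARC probe 7, -0.18 to 0.049, -0.16 to 0.11 and -0.14 to 0.13 at FBN1 probes 1 to 3, -0.052 to 0.24 and -0.31 to 0.29 at TNC probes 1 and 2, and -0.089 to 0.11 at DCN probe 1. The cause was not tested. All 23 probes passed the filter on dim probes. That filter cannot alter the log2 change of a probe that it keeps, and moves only its p and adjusted p.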
